A study of Mus musculus with 6 samples.

Results

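A set of 10 genes that mark embryonic mesenchyme and the meninges was followed library by library through RNA from sorted neural progenitor cells (NPCs). They were Col1a1, Col1a2, Col3a1, Dcn, Lum, Postn, Pdgfra, Prrx1, Twist1 and Foxc1, that is, 10 of the 51733 gene symbols in each count table. They were selected on their levels in the control and Ybx1-KO libraries, as a measure of non-neural cells carried through the sort, so the values of these genes between the genotypes are given as a description with no test. Every one of the 10 rows was found in all 6 libraries.

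The NPCs were sorted as Sox2-positive cells from neural tubes of C57BL/6 mouse embryos at E13.5, in mid-gestation, and total RNA was sequenced as stranded paired-end libraries. The 3 control libraries, named A, B and C here, carry the wildtype label, and the 3 Ybx1-KO libraries, named D, E and F, carry the label YBX1KO. The study describes the knockout as homozygous for the Ybx1 tm1Ley null allele and the controls as siblings, with a Sox2-eGFP reporter allele used for sorting. The allele is carried by every cell of such an embryo, not by NPCs alone, and the study describes exencephaly, an open brain, in Ybx1-KO embryos. The labels do not say whether a library came from 1 embryo or from several, so the spread between libraries may be technical as well as biological. The sample titles of A and B share their first number, as do those of D and E, and the sources used here do not explain it.

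Mesenchyme is the loose, migratory tissue that surrounds the neural tube and forms skin dermis, bone, cartilage and, next to the brain and spinal cord, the meninges. Its cells secrete fibrillar collagens and small leucine-rich proteoglycans into the extracellular matrix, receive platelet-derived growth factor through the Pdgfra receptor, and are specified by transcription factors such as Twist1, Prrx1 and Foxc1. Neuroepithelial progenitors lie on the other side of a basement membrane and also make some matrix genes, such as the cartilage collagen Col2a1. Pdgfra is also carried by oligodendrocyte precursors, and Foxc1 is required in the meninges.

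The libraries held 20841990 (A), 23883542 (B), 21574427 (C), 8483075 (D), 13321952 (E) and 4743279 (F) counts on genes. Values are given as CPM, a gene's counts relative to the total of its library, with totals scaled by the TMM method, and 3 counts, the smallest amount taken as shown, stood at 0.138 CPM in B and at 0.420 CPM in F. All 10 genes had at least 3 counts in every library. Ybx1 itself stood at 235, 523 and 301 CPM in A, B and C, against 124, 54.5 and 9.51 CPM in D, E and F. The deleted gene was therefore lower in every Ybx1-KO library than in every control, although reads remained in all of them. Sox2, the gene of the sort, stood at 17.2, 42.3 and 47.6 CPM in the controls, against 33.0, 49.8 and 23.8 CPM in Ybx1-KO. Control A held the least Sox2 of the 6 libraries.

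Summed over the 10 genes, the level was 1079 CPM in control A, 204 CPM in B and 277 CPM in C. In D, E and F it was 163, 185 and 111 CPM. Control A thus held 4.48 times the mean of the other controls, while B and C together held 1.57 times the mean of the Ybx1-KO libraries. The groups did not overlap, at 520.0 ± 485 CPM in control and 153 ± 38.0 CPM in Ybx1-KO (SD, n = 3 each), a difference of -1.76 on the log2 scale. Without A that difference was -0.67, and without A and F it was -0.47. In bulk RNA, fewer cells of a type and less RNA per cell cannot be told apart.

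**Figure D1:**
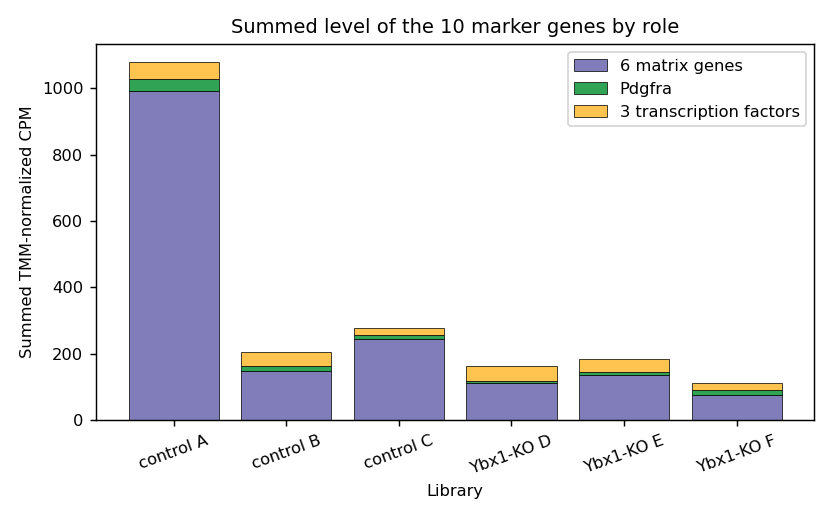
Summed TMM-normalized CPM of the 10 marker genes in each library (bars from 0), split into the 6 matrix genes, Pdgfra and the 3 transcription factors. Control A reaches 1079 CPM, nearly all of it from matrix genes, and the other 5 libraries lie between 111 and 277 CPM.

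Of the 10 genes, 9 were highest in control A, and the exception was Foxc1, highest in Ybx1-KO E. Among all 21329 tested genes, 12.1% were highest in A, 11.0% in B, 9.63% in C, 19.0% in D, 12.8% in E and 35.4% in F. For 6 of the 10 genes, control A was at least 3 times the mean of B and C, which held for 4.95% of tested genes. For 2 of the 10, Lum and Postn, all Ybx1-KO libraries lay below all controls, and for 0 did they lie above. The background shares of those patterns were 8.17% below and 4.99% above. With A left out the same count was again 2 below and 0 above, against 9.73% and 6.25% of tested genes. These counts were read from the contrast on which the genes were picked and are given as a description.

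The median log2 ratio of Ybx1-KO to control over the 10 genes was -1.77, beside 0.25 over all tested genes. Without A the median over the 10 fell in size to -0.58, and without A and F to -0.47. The 10 genes did not vary as a unit. The 6 matrix genes had a median log2 ratio of -2.19, Pdgfra stood at -0.94 and the 3 transcription factors had a median of -0.18.

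**Figure D2:**
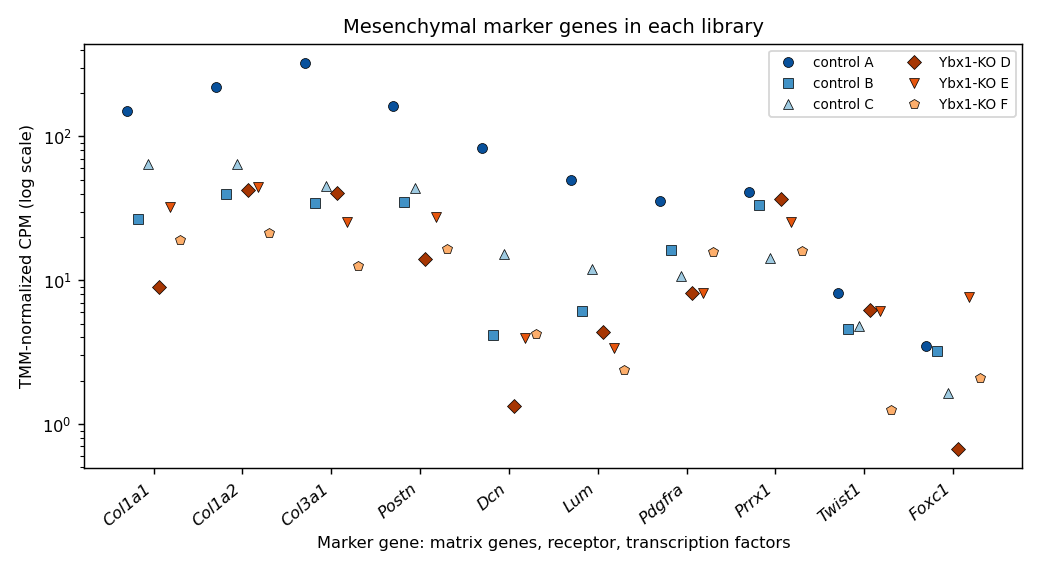
TMM-normalized CPM of each marker gene (log axis), with blue symbols for the 3 control libraries and orange to brown symbols for the 3 Ybx1-KO libraries. Control A sits apart above the other libraries for the matrix genes on the left, while the groups mix for Prrx1, Twist1 and Foxc1 on the right.

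The matrix genes carried most of the signal. Their summed level was 990.4, 147 and 245 CPM in A, B and C, against 111, 137 and 76.0 CPM in D, E and F. They made up 91.8% of the summed level in A, where Pdgfra gave 3.32% and the transcription factors 4.88%. Control A held 5.05 times the mean of B and C in matrix genes, and B and C held 1.81 times the mean of the Ybx1-KO libraries.

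Col3a1, on the plus strand at chr1:45311538-45349706 (GRCm38), encodes the chain of type III collagen, which is abundant in soft, distensible tissue. It stood at 323, 34.6 and 44.9 CPM in A, B and C, against 40.2, 25.5 and 12.6 CPM in D, E and F. Only A was far from the rest, at 8.13 times the mean of B and C, and D lay between B and C. The log2 ratio of Ybx1-KO to control was -2.34 with all libraries and -0.60 without A.

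Col1a1 (chr11:94936224-94953042, plus strand) and Col1a2 (chr6:4504814-4541544, plus strand) encode the alpha chains that assemble into type I collagen, the main fibril of dermis, bone and meninges. Col1a1 stood at 151, 26.9 and 64.5 CPM in the controls, against 8.93, 32.4 and 19.2 CPM in Ybx1-KO. The groups overlapped because E lay above B. Col1a2 stood at 220.1, 40.1 and 64.8 CPM in the controls, against 42.6, 44.6 and 21.3 CPM in Ybx1-KO. Here D and E both lay above B, and A was 4.20 times the mean of B and C, against 3.31 times for Col1a1. The log2 ratios were -1.98 for Col1a1 and -1.57 for Col1a2, and without A they were -1.16 and -0.53.

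Postn (chr3:54361109-54391037, plus strand) encodes periostin, a secreted protein that binds collagen and fibronectin. It stood at 163, 35.2 and 44.1 CPM in A, B and C, against 14.0, 27.6 and 16.4 CPM in D, E and F. All Ybx1-KO libraries lay below all controls, with B the lowest control and E the highest Ybx1-KO library. Control A was 4.12 times the mean of B and C, and B and C were 2.05 times the mean of the Ybx1-KO libraries.

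Dcn and Lum encode decorin and lumican, small leucine-rich proteoglycans that coat collagen fibrils, and they are neighbours on chromosome 10 (chr10:97479609-97518143 and chr10:97565128-97572703, both plus strand). Dcn stood at 83.1, 4.193 and 15.2 CPM in A, B and C, against 1.34, 3.99 and 4.197 CPM in D, E and F. The groups touched only where F and B met, at nearly the same level. Lum stood at 49.9, 6.13 and 12.1 CPM in the controls, against 4.35, 3.37 and 2.38 CPM in Ybx1-KO, without overlap. Dcn had the largest ratio of A to the mean of B and C among the 10 genes, at 8.56, and Lum stood at 5.49. With A left out, Dcn and Lum also had the largest ratios between groups among the 10, with B and C at 3.06 and 2.70 times the Ybx1-KO mean. The same gene cluster holds Kera and Epyc, further proteoglycan genes, which had 0 counts in some libraries. Kera had 34, 13 and 13 counts in the controls and 0, 0 and 32 in the Ybx1-KO libraries, and Epyc had 43, 0 and 10 against 3, 0 and 5. Neither passed the filter for testing.

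Pdgfra (chr5:75152292-75198215, plus strand) is the receptor through which mesenchymal cells and oligodendrocyte precursors receive platelet-derived growth factor. It stood at 35.8, 16.1 and 10.8 CPM in A, B and C, against 8.15, 8.18 and 15.7 CPM in D, E and F. Control A was again highest, at 2.66 times the mean of B and C, but F lay between the other controls. The log2 ratio was -0.94, and -0.32 without A.

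The transcription factors followed another course. Twist1 (chr12:33957671-33959829, plus strand), needed for cranial mesenchyme and neural tube closure, stood at 8.12, 4.61 and 4.80 CPM in the controls, against 6.25, 6.13 and 1.26 CPM in Ybx1-KO. Both D and E lay above B and C, and F was lowest, on 9 counts. Prrx1 (chr1:163245119-163313710, minus strand), a homeobox factor of limb and craniofacial mesenchyme, stood at 41.0, 33.2 and 14.3 CPM in the controls, against 36.8, 25.5 and 15.9 CPM in Ybx1-KO. The libraries of the groups interleaved, and the lowest value was in control C. Foxc1 (chr13:31806633-31812476, plus strand), a forkhead factor of the meninges, stood at 3.49, 3.23 and 1.65 CPM in the controls, against 0.670, 7.67 and 2.10 CPM in Ybx1-KO. The highest and the lowest value of Foxc1 both came from Ybx1-KO libraries, on 75 counts in E and 6 in D. Together the 3 factors were at 52.7, 41.1 and 20.8 CPM in A, B and C, against 43.8, 39.2 and 19.3 CPM in D, E and F, so A was 1.70 times the mean of B and C, against 5.05 times for the matrix genes.

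**Figure D3:**
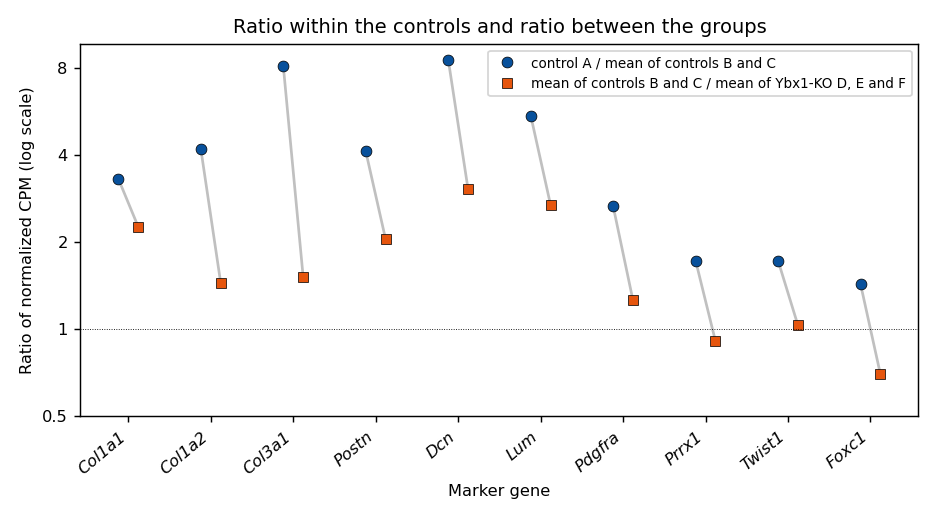
For each marker gene, the ratio of control A to the mean of controls B and C (blue circles) and the ratio of that mean to the mean of the 3 Ybx1-KO libraries (orange squares), on a log axis with a dotted line at 1. Every gene has its blue point above its orange point, from 8.56 against 3.06 for Dcn to 1.43 against 0.701 for Foxc1.

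For all 10 genes, the ratio of A to the other controls was larger than the ratio of those controls to the Ybx1-KO libraries. The first ratio sets a single library against a mean, and A was the highest library for 9 of the 10. The share of all tested genes with this pattern was not computed, so the count is a description. The ratio of B and C to the Ybx1-KO mean was 0.911 for Prrx1 and 0.701 for Foxc1, that is, lower in B and C. It was 1.03 for Twist1. The log2 ratio of Ybx1-KO to control was below 0 for 9 of the 10 genes, which were picked on this contrast, and for 8 without A. Among all 21329 tested genes it was below 0 for 8254 with all libraries, and the share without A was not computed.

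Per kilobase of exon (FPKM, here TMM-normalized CPM per kilobase), Col3a1 had the highest mean level over the 6 libraries, at 8.16. Col1a1 followed at 7.70, Col1a2 at 5.81, Postn at 5.76 and Lum at 5.32. Dcn and Twist1 were nearly level, at 3.20 and 3.19, and Prrx1 stood at 2.51, Pdgfra at 1.57 and Foxc1 at 0.536. Each gene's range over the libraries overlapped that of its neighbour in this order, so no step in it exceeded the spread between libraries. In control A the order began with Col3a1 at 32.9, Col1a1 at 23.1 and Lum at 20.4 FPKM, and Twist1 stood at 4.99. In Ybx1-KO D, Col3a1 stood at 4.09 and Twist1 at 3.84 FPKM, so a matrix gene and a transcription factor were then at about the same level.

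Ybx1 belongs to the Y-box proteins, named for DNA containing CCAAT, so the sequence before the start site was read for the genes where RefSeq (GRCm38.p6) gave a window. Windows ran from 250 bases before to 50 bases after the start and were found for 7 of the 10 genes, in 8 windows. The letters CCAAT, or ATTGG for the other strand, were in 4 of the 8 windows (Col1a2, Twist1, Foxc1 and the upstream of the Postn windows), against 37.4% of all 32851 windows. The letters TATAAA, or TTTATA for the other strand, were in 3 of the 8 (Col3a1, Postn and Twist1), against 13.6% of all windows. Neither set of letters was found for Prrx1 or Pdgfra. Below are the 130 bases before the start of the matrix genes Col3a1 (chr1:45311408-45311537) and Postn (chr3:54360977-54361106) and, as a transcription factor gene, of Twist1 (chr12:33957541-33957670), all on the plus strand and 5′ to 3′, with both motifs in capitals.
Col3a1: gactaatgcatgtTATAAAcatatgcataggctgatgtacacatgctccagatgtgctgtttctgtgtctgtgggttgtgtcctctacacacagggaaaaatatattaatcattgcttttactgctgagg
Postn: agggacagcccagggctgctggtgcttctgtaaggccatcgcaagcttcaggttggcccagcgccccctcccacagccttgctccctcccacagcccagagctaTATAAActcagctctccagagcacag
Twist1: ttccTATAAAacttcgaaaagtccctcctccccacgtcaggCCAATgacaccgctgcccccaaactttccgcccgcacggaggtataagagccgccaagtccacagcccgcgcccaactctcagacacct
The first T of TATAAA lay 117 bases before the start of Col3a1, 26 before that of Postn and 126 before that of Twist1, and the first C of CCAAT lay 89 bases before the start of Twist1. A match of letters is a description of the sequence and not of a site in use.

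The library Ybx1-KO F stood apart from the rest. Of its counted read pairs 7.22% fell on genes, against 18.0% to 24.7% in the others. The 1500 olfactory, vomeronasal and taste receptor genes, which serve sensory organs, summed to 2825 CPM in F, against 80.9, 28.7 and 98.4 CPM in the controls, 23.9 CPM in D and 28.4 CPM in E. Per kilobase of exon, F held 3.67 counts over these receptor genes. Set against that level, Col1a1 in F stood at 5.69 times, Postn at 3.67, Col1a2 at 3.33, Pdgfra at 3.05, Prrx1 at 2.81 and Col3a1 at 2.50 times. Lum stood at 1.89, Twist1 at 1.51 and Dcn at 1.40 times the receptor level, and Foxc1 at 0.700 times, below it. In the other 5 libraries the lowest such value of the 10 genes was 15.8 times, for Foxc1 in C. With the receptor level subtracted per kilobase from every library, the summed difference was -1.89 and the median over the 10 genes -1.86 on the log2 scale, and 4 of the 10 genes had no overlap between the groups, against 13.1% of all tested genes treated in the same way.

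**Figure D4:**
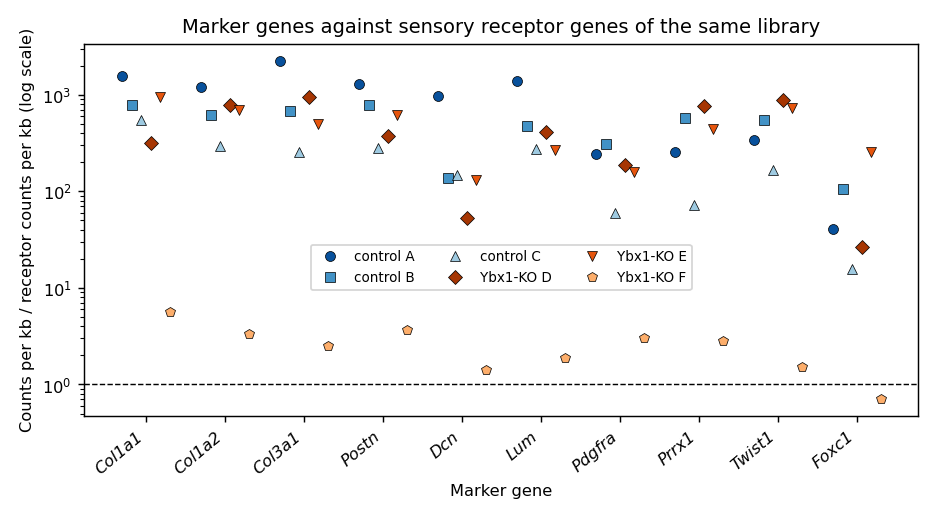
Counts per kilobase of each marker gene divided by counts per kilobase over 1500 sensory receptor genes of the same library (log axis, dashed line at 1). In Ybx1-KO F (pale pentagons) the values run from 0.700 for Foxc1 to 5.69 for Col1a1, and in the other libraries all values are at or above 15.8.

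Likeness among the 10 genes was described over the 6 libraries on log2(CPM + 0.5), as Pearson's r to the mean of the other 9, points that share a library and its depth. Postn followed the others most closely at 0.985, then Col1a2 at 0.956, Lum at 0.946, Col3a1 at 0.916 and Dcn at 0.901. Col1a1 stood at 0.886 and Pdgfra at 0.720, and Twist1, Prrx1 and Foxc1 at 0.560, 0.362 and 0.242. Without A, Postn was at 0.949 while Col3a1 stood at 0.538, Dcn at 0.560, Pdgfra at -0.17 and Prrx1 at -0.27. Among the 11025 other protein-coding genes above a mean of 5 CPM, the 10 most like the mean of the marker genes were Shc4, Aldh6a1, Fstl1, Mettl5, 2610044O15Rik8, Dars, Crebzf, Asah1, Vamp4 and Nfyb, with r from 0.986 to 0.961, from 0.995 to 0.950 without F and from 0.966 to 0.774 without A. In all, 93 of them had r above 0.9. Of the 10, Fstl1, a secreted glycoprotein of fibroblasts, is a matrix-associated gene. It stood at 210, 96.8 and 84.8 CPM in A, B and C, against 53.0, 92.2 and 52.2 CPM in D, E and F.

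Across all 21329 tested genes, the quasi-likelihood test of edgeR called 0.00% of genes, 0 in either direction, where a call needed a Benjamini-Hochberg adjusted p below 0.05 with more than 1.5-fold change. At an unadjusted p below 0.05, 6.96% were higher and 4.26% lower in Ybx1-KO, DESeq2 called 214 genes and limma-voom 0. The values of further genes below come from this fit.

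A further 16 fibroblast matrix genes were mostly highest in control A as well. All 16 were tested and 0 were called. At an unadjusted p below 0.05 by edgeR, 0 were higher and 7 lower in Ybx1-KO, beside 6.96% and 4.26% of all tested genes. This list and those below were chosen with earlier results of these data known, so such counts are a description. The median log2 difference of the 16 was -1.06, beside 0.31 over all tested genes, and 13 of the 16 were highest in A. Their summed level was 1669, 949 and 756 CPM in A, B and C, against 515, 1022 and 519 CPM in D, E and F. Unlike for the 10 genes, the groups overlapped in this sum, since E lay above B and C. The most abundant per length was Sparc, a collagen-binding glycoprotein, at 334, 122 and 158 CPM in the controls, against 147, 213 and 78.2 CPM in Ybx1-KO. Vcan, the large proteoglycan versican, which neural tissue also makes, stood at 428, 468 and 244 CPM in the controls, against 152, 363 and 134 CPM in Ybx1-KO, so its highest value was in B. Ogn, another small leucine-rich proteoglycan, differed most in size, at 26.5, 3.64 and 4.95 CPM in the controls, against 0.223, 0.920 and 0.839 CPM in Ybx1-KO, a log2 difference of -4.13 (SE 0.932, adjusted p = 0.208 by edgeR). It rested on 2, 9 and 6 counts in D, E and F. Without A its difference was -2.70 (adjusted p = 0.783 by edgeR). It passed the threshold of a call without B, D or E (adjusted p = 0.036, 0.000161 and 0.00037), and over 19 alternatives its adjusted p ran from 0.000161 to 0.871.

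For the genes that process collagen, enzymes, chaperones and the matrix glycoprotein Sparc, control A was the highest library for some of them. Of 18 such genes 17 were tested, 0 were called, 1 was higher and 2 were lower at an unadjusted p below 0.05, and 7 were highest in A. Among the controls, A lay above the mean of B and C for 17 of the 18 and below it for 1, from 0.976 to 6.76 times. The share of all tested genes with A above that mean was not computed, here or for the lists below. The summed level of the 18 genes was 935, 525 and 645 CPM in the controls, against 548, 776 and 421 CPM in Ybx1-KO. In this sum A was 1.60 times the mean of B and C. Sparc is in the fibroblast matrix list as well, and without it, a choice made after seeing the data, the sum was 601, 403 and 487 CPM in the controls and A was 1.35 times that mean. P4hb, a subunit of prolyl hydroxylase that every secretory cell uses, stood at 139, 124 and 132 CPM in the controls, against 81.6, 151 and 72.7 CPM in Ybx1-KO. Lox, which crosslinks collagen outside the cell, differed most, at 32.9, 5.07 and 4.65 CPM in the controls against 6.47, 0.204 and 0.700 CPM (log2 difference -2.52, SE 0.988, adjusted p = 0.436 by edgeR). Lox was thus high in A alone and higher in D than in B and C. Without D its difference was -5.10 and passed the threshold of a call (adjusted p = 2.67e-08 by edgeR), and over 17 alternatives its adjusted p ran from there to 0.639.

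Among 15 genes of PDGF and TGF-beta signalling, which act on mesenchyme through Pdgfra and related receptors, 11 were tested and 0 called, with 2 higher and 0 lower at an unadjusted p below 0.05. Their summed level was 225, 217 and 139 CPM in the controls, against 263, 249 and 209 CPM in Ybx1-KO. Pdgfa, a ligand of Pdgfra, stood at 11.2, 8.89 and 15.9 CPM in the controls, against 38.8, 21.0 and 11.1 CPM in Ybx1-KO. Tgfbr1, a TGF-beta receptor and the most abundant per length of the list, stood at 96.9, 140.2 and 50.9 CPM in the controls, against 156, 133 and 96.7 CPM in Ybx1-KO. Neither had its highest value in A. Tgfb1 had the largest log2 difference, 2.52 (SE 1.12, adjusted p = 0.444 by edgeR), with 14.5 CPM in F, 5.62 times the receptor level there, and 2.66 CPM or less in every other library.

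A further 16 transcription factors of mesenchyme did not follow the matrix genes in their sum, which was 45.1, 43.9 and 29.1 CPM in the controls, against 52.4, 36.7 and 71.5 CPM in Ybx1-KO. The groups overlapped, and A lay close to B. In F the 16 genes stood at 0.258 (Twist2) to 6.86 (Osr1) times the receptor level of that library, and Alx4, named after its values were seen, gave 14.7 of the 71.5 CPM. Of the 16, 11 were tested and 0 called, with 1 higher and 1 lower at an unadjusted p below 0.05, and 2 were highest in A. Snai2, the most abundant per length, which also marks neural crest, stood at 4.34, 5.34 and 4.60 CPM in the controls, against 17.3, 1.43 and 1.68 CPM in Ybx1-KO. It was high in D alone. Twist2, the relative of Twist1 found in dermis, stood at 5.71, 2.72 and 1.60 CPM in the controls, and rested on 1, 3 and 3 counts in the Ybx1-KO libraries.

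Of 12 genes of the meninges, 8 were tested and 0 called, with 2 higher and 0 lower at an unadjusted p below 0.05, and 3 were highest in A. Their sum was 223, 242 and 152 CPM in the controls, against 234, 344 and 252 CPM in Ybx1-KO, and A was 1.14 times the mean of B and C. Without Crabp2, a choice made after seeing the data, the sum was 202, 177 and 118 CPM in the controls, against 120, 211 and 156 CPM in Ybx1-KO, and A was 1.37 times that mean, against 5.05 times for the matrix genes above. Members of the list differed among themselves in this ratio. A lay above the mean of B and C for 7 of the 12 genes and below it for 5, with most of these genes named here after their values were seen. The ratio was 5.46 for Slc6a13, a transporter of the meninges, 2.50 for Tbx18, 2.48 for Lama2, 2.02 for Cxcl12, 1.49 for Cdh11 and 1.47 for Rdh10, with Aldh1a2 close above Cdh11. It was 0.943 for Bmp4, 0.854 for Bmp7, 0.554 for Lama1, 0.442 for Crabp2 and 0.289 for Foxc2. Slc6a13 rested on 46, 1 and 15 counts in the controls and had 0, 4 and 38 counts in D, E and F. Crabp2, a retinoic acid carrier that some neurons make as well, was the most abundant per length and the most different, at 21.8, 64.5 and 34.2 CPM in the controls, against 115, 133 and 96.0 CPM in Ybx1-KO (log2 difference 1.51, SE 0.436, adjusted p = 0.349 by edgeR). Cdh11, a cadherin of mesenchyme, stood at 108, 85.9 and 59.9 CPM in the controls, against 48.0, 87.7 and 37.5 CPM in Ybx1-KO.

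**Figure D5:**
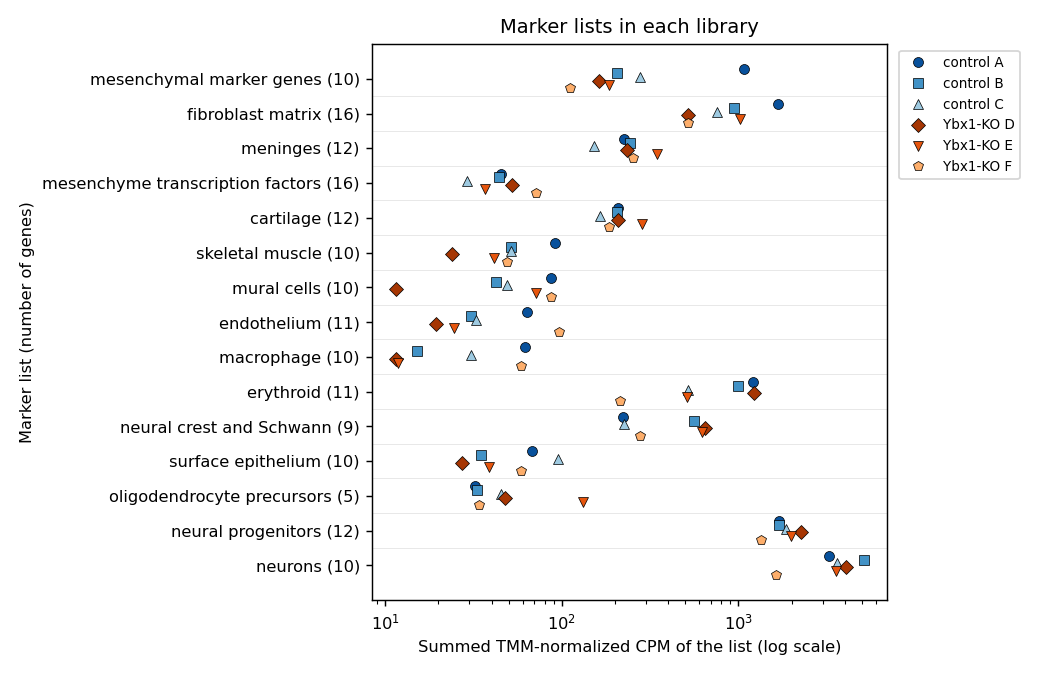
Summed TMM-normalized CPM of each marker list in each library (log axis), with the 10 marker genes in the top row and other cell types below. Control A lies apart in the top 2 rows, while in the meninges and neural progenitor rows its sum lies among the other libraries. In the progenitor row Fabp7 gives 894 of 1705 CPM in A, and A is below the mean of B and C for 9 of the 12 genes.

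Several other lists were highest in A among the controls. The ratio of A to the mean of B and C was 2.69 for macrophages, 2.01 for endothelium, 1.90 for mural cells, 1.76 for skeletal muscle and 1.60 for erythroid cells, while it was 1.27 for PDGF and TGF-beta signalling, 1.24 for the factors of mesenchyme and 1.12 for cartilage. The 11 erythroid genes, led by Hbb-y, summed to 1210, 993 and 517 CPM in the controls, against 1226, 508 and 214 CPM in Ybx1-KO, with Hemgn at 0 counts in C. Within that list Hbb-bs, an adult beta-globin, stood at 593, 16.1 and 188 CPM in the controls, against 20.0, 6.23 and 4.90 CPM in Ybx1-KO (log2 difference -4.67, SE 0.932, adjusted p = 0.167 by edgeR). The difference was -3.31 without A and -5.63 without D. Without B, D or E the adjusted p was 0.000455, 1.81e-11 and 7.92e-08, past the threshold of a call, and over 19 alternatives it reached 0.672. Hbb-y, an embryonic globin, stood at 197, 550 and 135 CPM against 748, 230 and 124 CPM. Adult and embryonic globin RNA therefore did not follow each other, and near-identical globin genes may share reads. Of these 11 genes, all were tested and 0 called, with 1 higher and 3 lower at an unadjusted p below 0.05.

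The 10 macrophage genes summed to 61.6, 15.2 and 30.7 CPM in the controls, against 11.5, 11.9 and 58.8 CPM in Ybx1-KO, with 6 highest in A, 7 tested and 0 called, and with 0 higher and 1 lower at an unadjusted p below 0.05. Cd68 was the most abundant per length, at 4.86, 3.32 and 6.55 CPM against 2.46, 3.48 and 14.3 CPM, and Tyrobp, a signalling adaptor, stood at 7.70, 0.553 and 4.00 CPM against 0.00, 1.02 and 3.08 CPM. C1qb, a complement subunit, stood at 8.26, 1.61 and 2.40 CPM in the controls and had 0, 0 and 3 counts in the Ybx1-KO libraries, and 4 genes of the list were at 0 counts in D. The 10 genes of skeletal muscle summed to 91.1, 51.7 and 51.9 CPM in the controls, against 23.8, 41.2 and 48.7 CPM in Ybx1-KO, led by Actc1, with 4 at 0 counts in D. The 11 endothelial genes summed to 63.7, 30.5 and 32.8 CPM against 19.3, 24.5 and 96.8 CPM, and the 10 mural genes to 87.0, 42.4 and 49.2 CPM against 11.5, 71.0 and 86.9 CPM. In these vessel lists F was close to or above A. In F the endothelial genes stood at 1.71 to 7.54, the mural genes at 1.39 to 9.53 and the macrophage genes at 0.712 to 22.1 times the receptor level of that library, whose part in these sums was not tested. The 12 neural progenitor genes, led by Fabp7, summed to 1705, 1698 and 1854 CPM in the controls, against 2255, 1989 and 1333 CPM in Ybx1-KO, so A was 0.960 times the mean of B and C there. Fabp7 alone gave 894 CPM of that sum in A, with a ratio of 1.33. Gene by gene, A lay below the mean of B and C for 9 of the 12 and above it for 3, from 0.116 to 1.65 times. How far blood, vessel or muscle cells, sequencing depth or the shared title numbers take part in the level of the matrix genes was not tested.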

How the data were processed

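The authors mapped read pairs, counted them on GENCODE v24 genes with HTSeq 0.6.1p1 and deposited raw counts per gene symbol, 1 table per library, with no normalization, filter or pooling. The submitters' processing notes name CASAVA, HTSeq and the build mm10 or GRCm38.p5. The aligner and the strand setting of the counting are not given in the sources used here, nor is which library ran on which sequencer model, so overlapping and antisense genes are uncertain. The 5 HTSeq tally rows were kept out of library sizes and tests. They held most read pairs, and pairs outside genes were 30.6% to 59.5% of the tallied pairs.

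Counts were scaled by TMM (factors 1.02, 0.909, 0.927, 1.06, 0.734 and 1.51 for A to F) and tested in R 4.3.3 with edgeR 4.0.16, using its quasi-likelihood test with Benjamini-Hochberg adjustment, without covariates, over 21329 genes whose mean FPKM passed 1 in control or Ybx1-KO. The common biological coefficient of variation was 0.800. Foxc1 missed that filter and the other 9 marker genes passed it. FPKM for the filter used totals on genes and union exon lengths of GENCODE M21 (GRCm38), which matched 47624 symbols directly and 364 by an older symbol, while 3745 did not match. A ratio of group means used CPM with an offset of 0.5. Alternatives used limma 3.58.1 (voom, the study's tool) and DESeq2 1.42.0, other scalings and filters, libraries left out, and libraries with a shared title number summed. Leaving out A and F together was chosen after seeing the data. Figures used matplotlib 3.10.9 in Python 3.11.15.

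The marker genes and lists were chosen with earlier results of these data known. Genes named from each list were the pair with the highest mean FPKM and the gene with the largest difference among those with at least 10 counts in at least 3 libraries, and all genes of likeness ranks up to 10. The other genes of the meningeal list, Hemgn, Alx4, Osr1 and Col11a1 were named outside that rule, after their values were seen. Among the listed factors of mesenchyme, a gene is not reported here and is left out of the list's values, and of the pair of highest mean FPKM only Snai2 is described. Sparc, Pdgfrb, Cspg4 and Sox10 each stand in more than 1 list. Mymk and Ccn2 are listed in the tables under older symbols. No 2 libraries were copies, since the smallest chi-square per degree of freedom over 15 pairs was 59.5. Read pairs carry no molecular identifiers, so the floor of 3 counts covers counting error only.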

Additional observations from a re-analysis of the deposited data

Results flagged for a closer look

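The 1500 olfactory, vomeronasal and taste receptor genes belong to none of the marker lists and served above as a reference level. They summed to 2825.4 CPM in Ybx1-KO F, against 28.7 to 98.4 CPM in the 3 control libraries. This signal lies outside the main measurement and above the level of the controls. F was also the shallowest library, with 4743279 counts on genes, and had a count on 39553 genes, the most of the 6 libraries. Its part in the levels of the marker genes in F was addressed only by subtraction of the receptor level, given above.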

How the results depend on the processing

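The summed level of the marker genes did not overlap between the groups in 13 of 13 settings, the main one included. Leaving out or summing libraries within a group can change that only through rescaling, so the count is no separate support. The genes were also picked on this contrast. The log2 difference of the sum, -1.76, ran from -2.14 to -0.67 with libraries left out in turn, the smallest in size being that without control A. The median log2 ratio of the 10 genes, -1.77, ran from -2.17 to -0.58, again with A left out at the small end. Without control A and Ybx1-KO F, an alternative chosen after seeing the data, both were -0.47 and 5 genes had no overlap, 4 of them lower and 1 higher in Ybx1-KO, against 34.8% of all genes tested in that setting. Genes without overlap, 2 with all libraries, numbered 4 with the receptor level subtracted, 6 with A and B summed and D and E summed, and 2 to 6 with libraries left out. The shares of all tested genes without overlap were 13.2% with all libraries, 13.1% with the subtraction, 30.2% with the sums and 16.4% to 30.3% with libraries left out. The 3 other scalings and the summed libraries moved the sum and median by less than the spread between replicates, as did 2 other offsets for the median, the only value computed with them.

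Genes called, 0 with edgeR (2393 at an unadjusted p below 0.05), numbered 214 with DESeq2 (118 higher), 193 without the filter on low counts (113 higher), 206 with A and B summed and D and E summed (138 higher), and 0 to 725 with libraries left out: 73 without B (29 higher, 44 lower), 696 without D (531 higher), 725 without E (478 higher) and 0 without A, C or F. Other scalings, filters and limma-voom called 0. The study, with voom and the same thresholds, reports differentially expressed genes in both directions, more of them higher in Ybx1-KO. The cause of these differences was not tested. Of the further named genes, 16 had a test in up to 19 settings. These gave 291 values, since in 13 cases a gene did not pass the filter or had no value, with 256 on the same side of the threshold, 33 newly past it and 2 reversed. The 33 came from Ogn, Hbb-bs, Foxd3 and Krt15 (each with DESeq2, without the filter, with the sums and without B, D or E), Slc1a3 (likewise, except without the filter), Lox (without the filter and without D), and Crabp2 and Snap25 (with DESeq2). The reversed values both came with limma-voom, Matn4 at -1.05 and Tie1 at -1.41, both highest in F. The median over all tested genes was 0.31 with TMM, 0.40 with RLE factors, 0.38 with upper-quartile factors and 0.51 with total counts only. Over the filters it ran from 0.075 with CPM above 1 in 3 libraries to 0.70 without the filter on low counts. With protein-coding genes alone it was 0.13, so this reference depends on the filter. No paired analysis was possible because the replicate numbers follow accession order and no label ties a control library to a Ybx1-KO library. Depth limits Foxc1 in D (6 counts) and Twist1 in F (9 counts) most.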

Other observations

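Among the controls, neural crest and Schwann genes were highest in B, with A and C nearly level. The 9 genes, led by Tfap2b, summed to 223, 560.2 and 224 CPM in A, B and C and to 648, 619 and 278 CPM in D, E and F. Of 8 tested, 0 were called by edgeR, with 4 higher and 0 lower in Ybx1-KO at an unadjusted p below 0.05. Foxd3, a factor of early neural crest, had 19, 92 and 12 counts in the controls and 258, 170 and 59 in the shallower Ybx1-KO libraries (log2 difference 3.24, SE 0.739, adjusted p = 0.208 by edgeR). The groups did not overlap, and the difference was 2.69 without D and 4.59 without B. Without B, D or E its adjusted p was 0.00524, 0.00744 and 0.000445, past the threshold of a call, and over 19 alternatives it reached 0.648. Ngfr, a neurotrophin receptor, stood at 18.1, 64.2 and 26.7 CPM against 96.7, 167 and 41.3 CPM. The 5 oligodendrocyte precursor genes, a cell type that also carries Pdgfra, summed to 32.3, 32.9 and 45.1 CPM in the controls and to 47.9, 131 and 34.1 CPM in the Ybx1-KO libraries, with 4 tested, 0 called, 2 higher and 0 lower at an unadjusted p below 0.05. Sox10, which neural crest shares, gave most of the value in E, at 93.9 CPM. Nkx2-2 stood at 2.74, 9.26 and 3.95 CPM against 19.3, 19.5 and 7.41 CPM, and Olig1 at 7.84, 0.921 and 8.95 CPM against 1.56, 2.25 and 1.82 CPM.

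Surface epithelium was highest in control C, not in A. Its 10 genes summed to 67.8, 34.8 and 95.6 CPM in the controls and to 27.3, 38.9 and 58.8 CPM in the Ybx1-KO libraries, with 8 tested, 0 called, 0 higher and 2 lower at an unadjusted p below 0.05. Krt15, a basal keratin, had 243, 51 and 720 counts in the controls and 0, 2 and 4 in the Ybx1-KO libraries (log2 difference -6.06, SE 1.08, adjusted p = 0.167 by edgeR, a fitted value that depends on the prior count). The difference was -4.74 without C and -7.21 without F. Without B, D or E its adjusted p was 0.000712, 1.92e-10 and 2.07e-08, past the threshold of a call, and over 19 alternatives it reached 0.639. Cldn6 had 35, 138 and 200 counts against 11, 132 and 63. The 12 cartilage genes, another mesenchymal derivative, summed to 207, 206 and 164 CPM in the controls, against 209, 284 and 184 CPM in Ybx1-KO, with 7 tested, 0 called, 1 higher and 1 lower. Col2a1, the fibrillar collagen of cartilage, which neuroepithelium also makes, stood at 73.9, 76.4 and 65.8 CPM against 90.5, 131 and 58.6 CPM, so it did not mark A as the collagens of soft tissue did. Over the 12 genes, however, A lay above the mean of B and C for 8 and below it for 4. Col11a1, another collagen of the list, stood at 64.2, 32.3 and 28.0 CPM against 18.0, 22.7 and 22.2 CPM, highest in A. Sox9 stood at 33.1, 81.6 and 45.2 CPM against 70.0, 115 and 41.4 CPM.

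The 10 neuron genes, led by Tubb3, summed to 3268, 5131 and 3599 CPM in the controls, against 4068, 3587 and 1628 CPM in Ybx1-KO, with all tested, 0 called, 0 higher and 1 lower. In this sum A was 0.749 times the mean of B and C. Gene by gene, it lay below that mean for 9 and above it for 1. Snap25, a synaptic protein, stood at 111, 161 and 167 CPM against 50.8, 79.7 and 50.9 CPM (log2 difference -1.28, SE 0.401, adjusted p = 0.384 by edgeR), and Gap43 at 162, 166 and 219 CPM against 208, 122 and 73.3 CPM. Among neural progenitor genes, of which 12 were tested and 0 called, with 4 higher and 1 lower, Slc1a3, a glutamate transporter of radial glia, stood at 91.8, 36.4 and 74.8 CPM against 21.3, 23.5 and 14.3 CPM (log2 difference -1.78, SE 0.424, adjusted p = 0.236 by edgeR). Without B, D or E that p was 0.0406, 0.00987 and 0.00959, and over 19 alternatives it reached 0.835. Vim, which mesenchyme also makes, stood at 379, 591 and 406 CPM against 430.2, 666 and 352 CPM. Vessel and muscle lists called 0 genes: of 6 endothelial genes tested 0 were higher and 0 lower at an unadjusted p below 0.05, of 8 mural genes 0 and 1, of 7 muscle genes 0 and 2. Acta2, a smooth muscle actin, stood at 10.8, 11.2 and 5.70 CPM against 0.558, 18.7 and 3.22 CPM, and Vtn, which encodes vitronectin, at 9.30, 2.53 and 5.15 CPM against 2.01, 15.7 and 9.93 CPM. Pecam1, an adhesion molecule of endothelium, stood at 8.12, 4.10 and 9.85 CPM against 5.47, 2.96 and 13.6 CPM. Rgs5, a pericyte gene, stood at 24.2, 7.69 and 16.3 CPM against 3.80, 8.69 and 4.48 CPM, Cdh5 at 16.4, 9.03 and 6.30 CPM against 2.01, 6.03 and 6.99 CPM, and Acta1 at 10.6, 1.80 and 10.1 CPM against 0.447, 1.74 and 1.82 CPM. Tie1, a receptor of endothelium, had 39, 67 and 35 counts in the controls and 0, 6 and 136 in the Ybx1-KO libraries, and Matn4, a cartilage matrix protein, had 29, 18 and 5 against 0, 0 and 110, so both were highest in F.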
